A study of Mus musculus with 3 samples.

Results

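The genes described here encode the proteins of the cytosolic ribosome. They were taken by name, as every gene listed as protein coding whose symbol starts with *Rpl* (large, 60S subunit) or *Rps* (small, 40S subunit) followed by a digit, without the kinase genes named *Rps6k*. The pattern found 91 of the 25759 listed genes. Of these, 81 encode a ribosomal protein or a paralog of one (49 large and 32 small subunit names), 9 carry a name with -ps, which marks a copy that was first taken for a pseudogene, and 1, *Rps19bp1*, encodes a protein that binds the small subunit protein Rps19. The pattern leaves out some genes whose products also sit in the ribosome, such as *Rplp0*, *Rplp1*, *Rplp2*, *Rpsa* and *Fau*, and these were summarised on their own.

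Ribosomal proteins are made in step with each other, since a ribosome holds nearly all of them in equal number. Their mRNAs are short and abundant, and most start with a run of pyrimidines at the 5′ end, the terminal oligopyrimidine (TOP) tract, through which the kinase mTOR and the binding protein LARP1 set how well they are translated. In T cells, ribosome content increases when a resting cell is activated and begins to grow. Most ribosomal protein genes of mammals also have many processed copies elsewhere in the genome, so that short reads of these mRNAs often match several places.

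The cells were follicular regulatory T (TFR) cells, a Foxp3+ subset that enters B cell follicles by way of CXCR5 and restrains the germinal centre, sorted as B220-CD4+CXCR5+GITRhi cells positive for the Blimp-1 reporter GFP from spleen and mesenteric lymph nodes of mice immunised with 125 µg NP-KLH in alum, boosted on day 7 and analysed on day 10. There were 3 RNA-seq libraries, 1 for each genotype. All mice carried FIC, a Cre recombinase made from the *Foxp3* locus and thus active in Foxp3+ cells, and 1 *Prdm1*gfp reporter allele in place of a working *Prdm1* allele. The genotype behind the library N, labelled NFATc1-deficient, was *Nfatc1*fl/fl.*Prdm1*gfp/+.FIC. That behind αA was *Nfatc1*caaA.*Prdm1*gfp/+.FIC, so that its Foxp3+ cells express constitutively active NFATc1/αA, and that behind PαA was *Nfatc1*caaA.*Prdm1*gfp/fl.FIC, in which Blimp-1, the product of *Prdm1*, is lost as well. The mice were on a C57BL/6J background, of either sex, and the number of mice behind a library is not given in the sources used here.

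With 1 library per genotype there was no spread between mice, and no p-value is given. Intervals are exact 95% Clopper-Pearson intervals on the reads and cover counting error only. They treat each read as independent. Reads amplified by PCR without molecular identifiers are not independent molecules, so the intervals can be too narrow even for counting error. Library totals lay between 25465829 and 29726219 reads, and 80.6 to 83.9% of the exon reads were uniquely placed. *Nfatc1* itself stood at 63.6 RPKM in N, 62.9 in αA and 32.4 in PαA, an order that does not follow the labels as deficient and overexpressing. Reads over the whole gene do not show whether its floxed part is deleted, and reads of exogenously expressed NFATc1/αA need not be counted at this gene. These values therefore do not test the labels. N, αA and PαA are used below as names of libraries and not as statements about NFATc1. *Prdm1* had 25.6 RPKM in N, 24.9 in αA and 10.0 in PαA, so its RNA was lower but still present in PαA. RPKM is the number of exon reads divided by the exon length in kilobases and by the library total, and levels of different genes are compared here on this scale. PαA against N differs in 2 alleles, *Nfatc1* and *Prdm1*, and the 3 comparisons share their libraries, so their values stand side by side and are not independent of each other.

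Start sites are shown first, because the TOP tract is the sequence feature that ribosomal protein genes are best known to share. Promoters of 63 of the 91 symbols were found in RefSeq (GRCm38.p6), as 75 sequences. A run of at least 8 consecutive C or T on the sense strand, counted only over the bases between 10 before and 20 after the annotated start, stood in 23 of the 75 (30.7%) and in 3693 of all 32851 promoters (11.2%). It was found in 9 of 30 promoters of *Rps* genes and in 14 of 45 of *Rpl* genes. Annotated starts can lie a few bases away from the start that cells use, so a promoter without a run in this window may still make a TOP mRNA. The stretches run from 40 bases before to 20 bases after the start, with the run inside the window in capitals. *Rpl13a* and *Rps6* hold long runs in the window. *Rpl4* and *Rpl7l1*, which are described below, hold none of 8 or more there, but the stretch of *Rpl4* has a run of 14 that lies from 18 to 5 bases before the start and so mostly outside the window.
Rpl13a (chr7:45128726-45128785, - strand): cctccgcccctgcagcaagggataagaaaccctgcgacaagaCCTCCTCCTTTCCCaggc
Rps6 (chr4:86857348-86857407, - strand): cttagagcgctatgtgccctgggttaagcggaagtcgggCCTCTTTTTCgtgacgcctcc
Rpl4 (chr9:64173347-64173406, + strand): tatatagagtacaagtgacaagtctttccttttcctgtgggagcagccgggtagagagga
Rpl7l1 (chr17:46782637-46782696, - strand): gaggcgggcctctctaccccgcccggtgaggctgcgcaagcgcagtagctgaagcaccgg

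The next pair shows why single genes of this group can be hard to separate. *Rps27rt* is a retrocopy of *Rps27*, on another chromosome and without introns. The longest run of bases that both stretches share counts 19 bases and begins at the annotated start of *Rps27rt*.
Rps27 (chr3:90213629-90213688, - strand): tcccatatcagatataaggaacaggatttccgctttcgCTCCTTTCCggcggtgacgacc
Rps27rt (chr9:114982720-114982779, - strand): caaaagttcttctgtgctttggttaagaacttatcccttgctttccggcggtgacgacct
The longest reading frame of *Rps27rt* equalled that of *Rps27* in all 255 bases. The frames of *Rps12* and *Rps12-ps3* (399 bases), *Rpl10* and *Rpl10-ps3* (645 bases) and *Rpl27* and *Rpl27-ps3* (411 bases) were likewise identical. *Rpl9* and *Rpl9-ps6* differed at 1 of 579 bases, G266A, counted from 1 at the A of the start codon with the base of *Rpl9* first. The 60 coding bases from 237 to 296 are shown with the differing base in capitals, and a read of 59 bases that does not cover it fits both genes.
Rpl9: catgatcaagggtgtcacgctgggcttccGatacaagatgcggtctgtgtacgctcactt
Rpl9-ps6: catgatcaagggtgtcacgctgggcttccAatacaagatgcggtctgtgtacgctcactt

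Ribosomal protein genes took up more of the PαA library than of the other two. The 91 genes held 3457160 of 27637953 exon reads in N, which is 12.5% (12.50 to 12.52), 14.1% (14.09 to 14.11) in αA and 18.2% (18.17 to 18.20) in PαA. Scaled to the library total, their summed exon reads were 1.08-fold higher in αA than in N, 1.32-fold higher in PαA than in αA and 1.43-fold higher in PαA than in N. Counting uniquely placed reads alone gave shares of 7.05, 8.12 and 10.7%, and reads across exon-exon junctions gave 21.7, 24.1 and 30.0%, in the same order. The folds of the uniquely placed reads, 1.09, 1.32 and 1.43, were close to those of all reads.

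**Figure D1:**
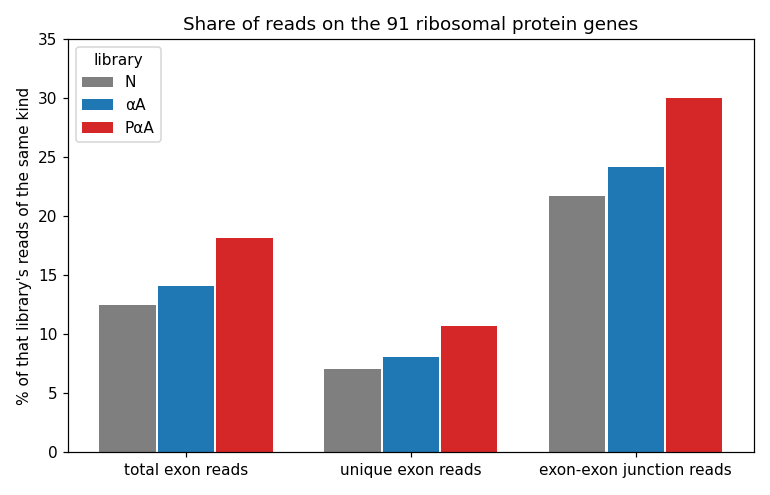
Bars give the share of exon reads, uniquely placed exon reads and exon-exon junction reads that fell on the 91 ribosomal protein genes, in percent of all reads of that kind in the library, with 1 bar for each library and no replicates. The PαA bar is the highest in each set, with 18.2% of exon reads against 12.5% in N and 14.1% in αA.

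Of the 91 genes, 83 passed 5 RPKM in at least 1 library, as 7017 of all genes did, and 82 passed it in every library. The median over the 83 genes was 1378 RPKM in N, 1469 in αA and 1863 in PαA, against 15.3, 13.7 and 13.3 RPKM over all 7017. Members made up 59 of the 100 genes with the highest RPKM in N, 58 in αA and 61 in PαA. *Rps12-ps3* was listed with 3208 RPKM in N, 3674 in αA and 5242 in PαA, but none of its reads was unique and its reading frame equals that of *Rps12*, so this level belongs to the pair. *Rpl13a*, a large subunit protein that also takes part in silencing of inflammatory mRNAs, had 3009 RPKM in N, 3391 in αA and 4978 in PαA. *Rpl23a*, at the exit of the peptide tunnel, had 3232 RPKM in N, 3497 in αA and 4295 in PαA, *Rpl13* had 3160.3 RPKM in N, 3305 in αA and 4127 in PαA, and *Rps27* had 2971 RPKM in N, 2906 in αA and 4651 in PαA. In each of these genes PαA lay highest, and αA lay closer to N than to PαA. Unique reads made up 9.09 to 9.70% of the reads of *Rpl13a* and 0.774 to 0.814% of those of *Rpl23a*. For *Rpl13* the share was 0.173 to 0.191%, and for *Rps27* 0.0612 to 0.108%. Most reads behind these levels thus match several places.

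The lowest levels above the filter belonged to genes that are no standard part of the ribosome or share their reads with a copy. They were *Rpl9-ps6* (mean of the 3 libraries 8.14 RPKM), *Rps19bp1* (13.7), *Rps12* (28.1), *Rpl7l1* (34.1) and *Rpl27* (43.3). The level of a single gene also depends on the exon length the files give, which joins all exons of a gene. *Rps15a* was listed with 6000 bases and *Rps20* with 3706, against a median of 937 over the 83 genes, and a longer length gives a lower RPKM for the same reads.

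**Figure D2:**
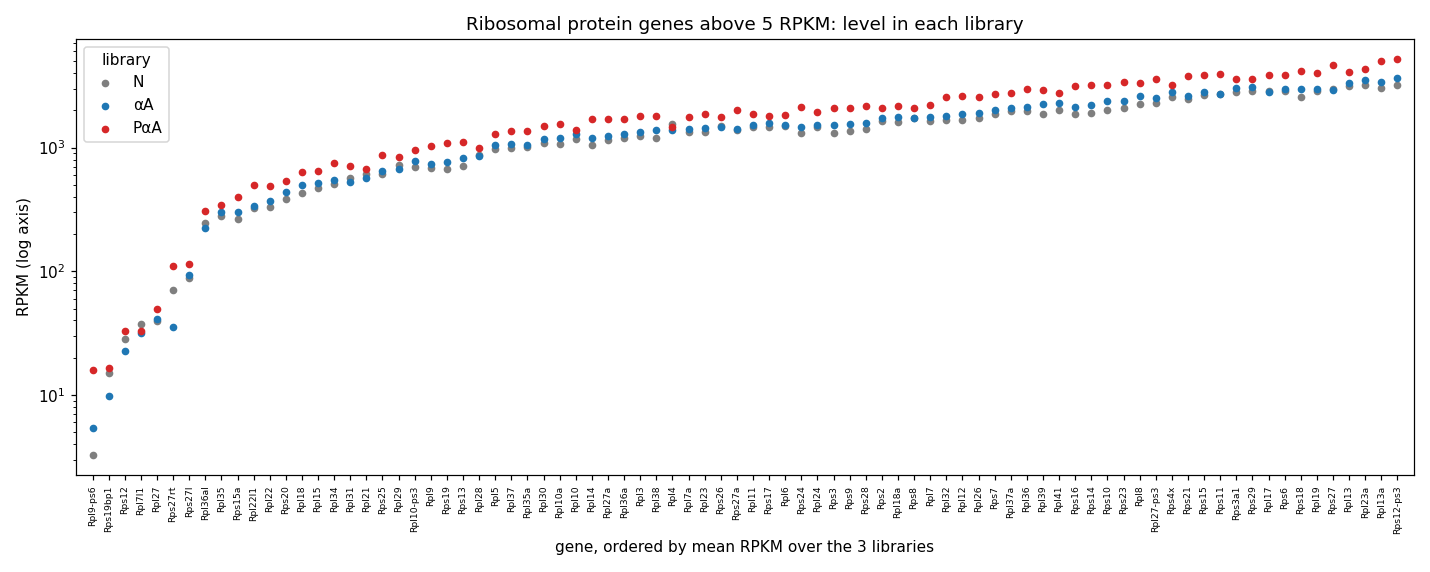
Points give the RPKM of 82 of the 83 genes above 5 RPKM on a log axis, ordered by the mean of the 3 libraries, with 1 point for each library. Of these genes, 75 lie above 100 RPKM in every library, and the PαA point is the highest for 80.

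Between αA and N the genes differed little. Of the 83 genes, 69 were higher in αA and 14 lower, with a median log2 ratio of 0.11 and quartiles of 0.05 and 0.17. Over all 7017 genes the median log2 ratio was -0.14, with 2231 higher and 4769 lower among the 7000 that had reads in both libraries. With TMM factors, which move the median of all genes upward, 78 of the 83 were higher and 5 lower. Past 1.5-fold, 1 of the 83 genes was higher, where the background over all genes was 3.12%, and 2 were lower, against 11.0%. With TMM factors the counts were 1 and 1, to which these backgrounds do not apply.

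The genes lowest in αA against N were not core ribosomal proteins with reads of their own, apart from *Rpl4*. *Rps27rt* had 788 (N), 361 (αA) and 1048 (PαA) reads, of which 4, 4 and 1 were uniquely placed. Its log2 ratio of αA to N was -1.0 (-1.18 to -0.82), but with uniquely placed reads it was 0.13 (-2.30 to 2.55), an interval that spans both directions. *Rps19bp1*, whose product also regulates the deacetylase SIRT1, had 369 (N), 220 (αA) and 350 (PαA) reads, all of them unique. Its log2 ratio of αA to N was -0.62 (-0.87 to -0.38). *Rps12* (-0.32), *Rpl7l1* (-0.24) and *Rpl4* (-0.16) followed on the log2 scale, and with median-of-ratios factors the ratio of *Rpl4* lay just above 0. The highest log2 ratios of αA to N were those of *Rpl9-ps6* (0.72), *Rpl39* (0.26), *Rps18* (0.23), *Rps10* (0.23) and *Rpl38* (0.23).

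Between PαA and αA all 83 genes were higher in PαA. Their median log2 ratio was 0.40, with quartiles of 0.30 and 0.49, against -0.06 over all genes, of which 3018 were higher and 3986 lower. Counting intervals lay above 0 for 82 of the 83 genes. The median shift was smaller than 1.5-fold, and few genes passed that fold. Past 1.5-fold, 4 of the 83 genes were higher, against a background of 5.53%, and 0 were lower, against 9.19%. With TMM factors, which moved the median of all genes to 0.01, 16 were higher, a count to which the background of 5.53% does not apply. The 4 were *Rps27rt* (log2 ratio 1.63), *Rpl9-ps6* (1.56), *Rps19bp1* (0.77) and *Rps27* (0.68), and *Rps16* came next with 0.57. With unique reads *Rps27rt*, with 4 such reads in αA and 1 in PαA, turned to -1.90 (-7.52 to 1.43), *Rps27* had 0.16 (-0.48 to 0.81) and *Rpl9-ps6* 1.32 (-0.15 to 2.99), intervals that all span 0. At the low end stood *Rpl7l1* with 0.03 (-0.05 to 0.12), *Rpl4* with 0.08 (0.07 to 0.10), *Rpl10* with 0.12 (0.10 to 0.14), *Rps4x* with 0.19 (0.18 to 0.21) and *Rpl28* with 0.20 (0.18 to 0.23). With TPM, which moves the median of all genes to -0.23, *Rpl7l1*, *Rpl4* and *Rpl10* turned to lower in PαA than in αA.

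Between PαA and N, 81 of the 83 genes were higher and *Rpl4* and *Rpl7l1* were lower, and with TPM *Rpl21* and *Rps19bp1* were lower too. The median log2 ratio was 0.50, with quartiles of 0.36 and 0.62, against -0.19 over all genes, of which 2349 were higher and 4655 lower. Past 1.5-fold, 26 of the 83 genes (31.3%) were higher, against a background of 5.67%, and 0 were lower, against 22.3%. That count of 26 depended on the scale, since it was 2 with TPM, 62 with TMM factors and 16 after centring on exon length. The median log2 ratio of all genes moved too, to -0.39 with TPM, 0.04 with TMM factors and 0.006 after centring. The background of 5.67% belongs to RPKM and does not apply to these counts. At 2-fold in either direction, 1 gene passed in αA against N, 2 in PαA against αA and 1 in PαA against N, where the backgrounds were 4.25, 4.63 and 10.3%. Scaling moved the median of all genes by more than 0.1 on the log2 scale. The median of the members minus that of all genes was 0.24 for αA against N, 0.46 for PαA against αA and 0.69 for PαA against N. A factor per library cannot change this difference, and centring on exon length lowered it to 0.11, 0.23 and 0.28. *Rpl7l1* alone lay below the median of all genes in PαA against N, and with TMM or median-of-ratios factors the ratio of no member was below 0.

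**Figure D3:**
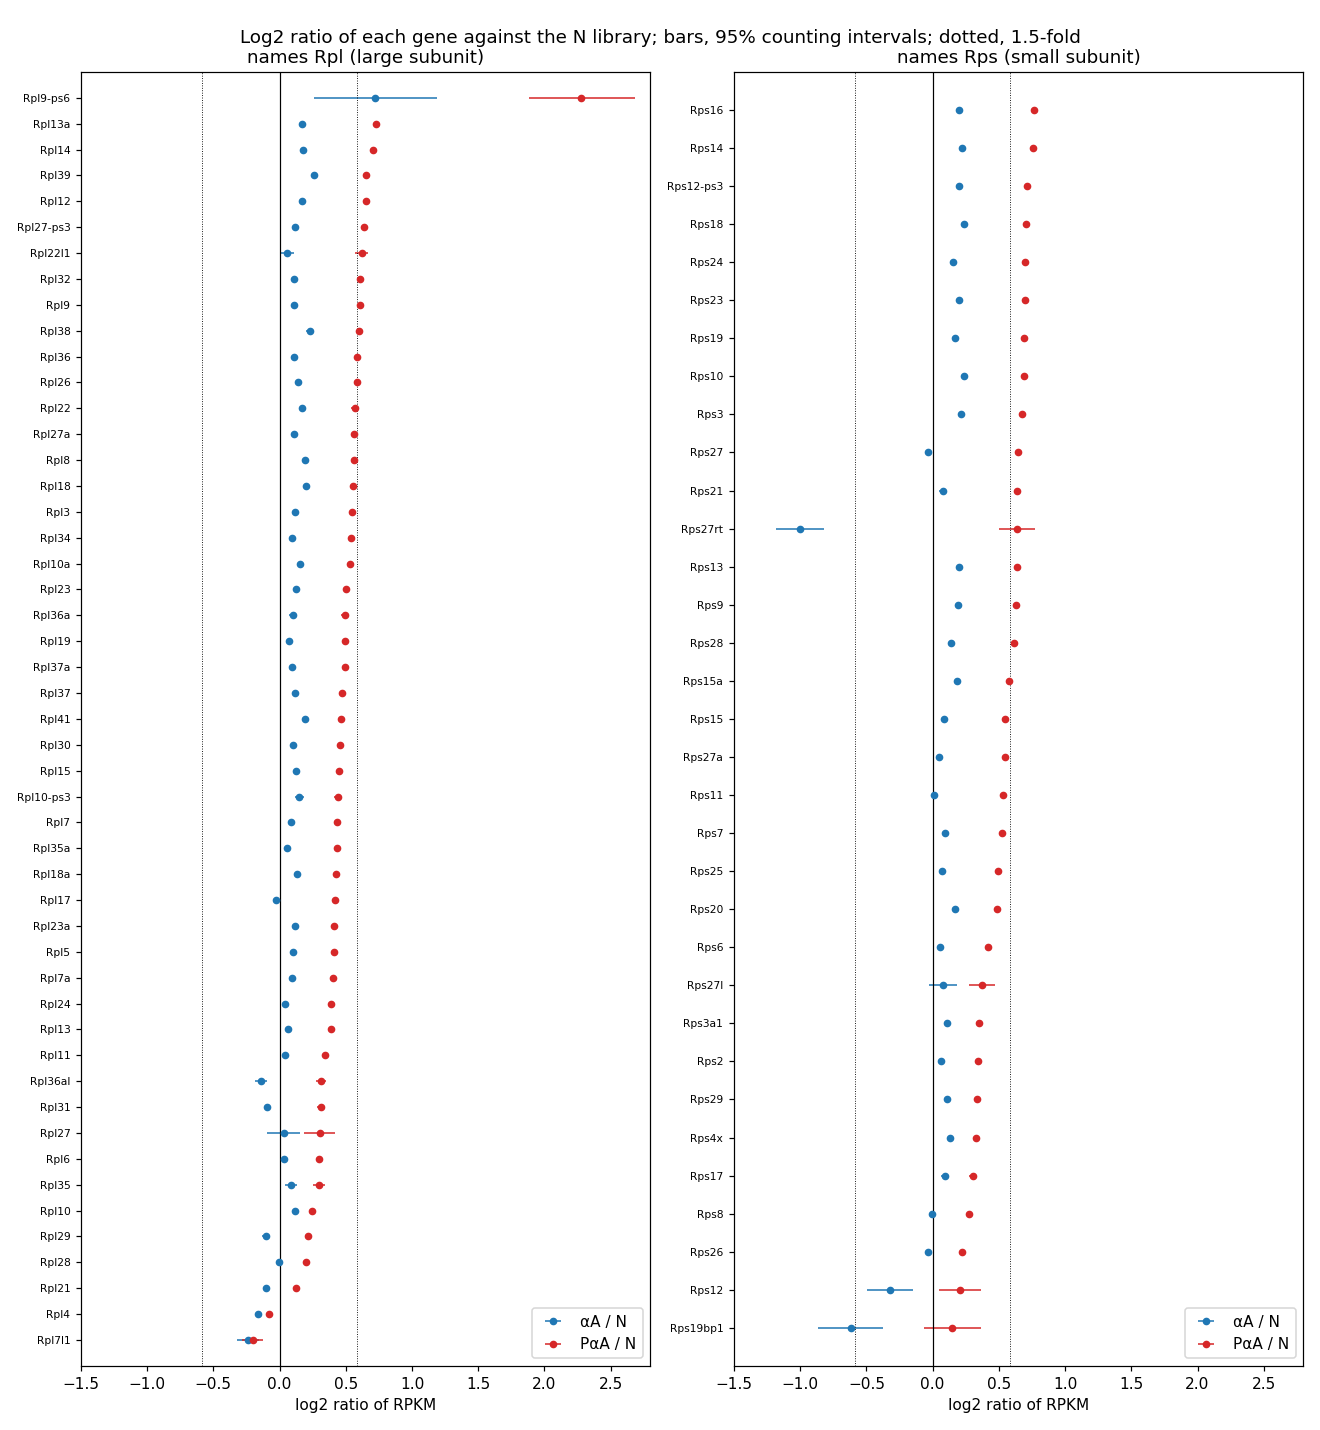
Each point is the log2 ratio of RPKM of 1 of 82 genes in αA (blue) or PαA (red) against N, with its 95% counting interval as a bar, for large subunit names on the left and small subunit names on the right. Dotted lines mark 1.5-fold, and the red points of 80 genes lie to the right of 0, with *Rps16* at 0.77 and *Rpl7l1* at -0.20.

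Small subunit genes were among those with the larger log2 ratios of PαA to N. *Rps16*, on chromosome 7 from 28350652 to 28353155 (GRCm38), had 1863 RPKM in N, 2135 in αA and 3166 in PαA. Its log2 ratio of PαA to N was 0.77 (0.75 to 0.78), and 8.69 to 9.41% of its reads were unique. *Rps14*, whose loss in human cells blocks red cell formation, had 1901 RPKM in N, 2214 in αA and 3219 in PαA. Its log2 ratio was 0.76 (0.75 to 0.78), with nearly all reads unique. The order N, αA, PαA held in both genes.

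Other small subunit genes with roles beyond the core kept to the same order. *Rps3*, which lines the mRNA entry and also takes part in DNA repair, had 1321 RPKM in N, 1532 in αA and 2111 in PαA and a log2 ratio of PαA to N of 0.68 (0.66 to 0.69). *Rps19*, the gene most often mutated in Diamond-Blackfan anaemia, had 677 RPKM in N, 760.1 in αA and 1094 in PαA and a ratio of 0.69 (0.67 to 0.71) on the same scale. *Rps6*, the target of S6 kinases, had 2871 RPKM in N, 2976 in αA and 3844 in PαA, and its log2 ratio was lower, 0.42 (0.41 to 0.44). *Rps27a*, which is made as a fusion with ubiquitin, had 1378 RPKM in N, 1425 in αA and 2011 in PαA and a log2 ratio of 0.55 (0.53 to 0.57), with 0.339 to 0.390% of its reads unique. *Rps4x*, on the X chromosome, stood near the low end with 0.32 (0.31 to 0.34).

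Among large subunit genes above 5 RPKM, *Rpl13a* was highest of those that encode a ribosomal protein, with a log2 ratio of PαA to N of 0.73 (0.71 to 0.74). This rank holds for all reads only. With unique reads *Rpl13a* had 0.63 (0.60 to 0.67), under *Rpl22l1* (0.75), *Rpl39* (0.66) and *Rpl14* (0.66). The ratios that follow are again those of all reads. *Rpl5* and *Rpl11*, which bind the 5S RNA and, when free, the p53 regulator Mdm2, had log2 ratios of 0.41 (0.39 to 0.42) and 0.34 (0.33 to 0.36). *Rpl38*, which is needed for translation of Hox mRNAs in the embryo, had 1188 RPKM in N, 1391 in αA and 1801 in PαA and a ratio of 0.60 (0.57 to 0.63). *Rpl4*, which lines the peptide exit tunnel, went the other way, with 1567 RPKM in N, 1399 in αA and 1482 in PαA. N was its highest library, and its log2 ratio was -0.08 (-0.10 to -0.06), with 71643, 58614 and 58044 reads, all of them unique. *Rpl21* (0.12) and *Rpl28* (0.20) followed at the low end of the log2 ratios, both with under 2% unique reads.

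Taken by subunit, the 46 large subunit genes above the filter had a median log2 ratio of PαA to N of 0.46 (quartiles 0.35 and 0.56) and the 32 small subunit genes one of 0.56 (0.37 and 0.68). Past 1.5-fold higher were 8 of the 46 and 15 of the 32, against a background of 5.67% over all genes. Counts past this fold depended on the scale, as given above for all members. The ranges overlapped over most of their length, and the difference between the subunits was not tested. In PαA against αA the medians were 0.37 and 0.46, and in αA against N 0.10 and 0.11. The 4 genes on the X chromosome had a median log2 ratio of PαA to N of 0.41, and the 13 on chromosome 7, the chromosome with most members, one of 0.63.

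Paralogs were measured beside the genes they resemble. *Rpl22*, which is needed for αβ T cell development, had 329 RPKM in N, 370.1 in αA and 488 in PαA, with 99.9% unique reads, and its paralog *Rpl22l1* had 323 RPKM in N, 336 in αA and 497 in PαA. On the RPKM scale, with listed exon lengths of 2065 and 628 bases, the levels of the pair were close in each library. Of the reads of *Rpl22l1*, 37.6 to 41.1% were unique. The log2 ratios of PαA to N were 0.57 (0.54 to 0.60) for *Rpl22* and 0.62 (0.57 to 0.67) for *Rpl22l1*, and with unique reads 0.75 (0.67 to 0.82) for *Rpl22l1*. *Rps27l*, a target of p53, had 88.7 RPKM in N, 93.7 in αA and 115 in PαA and a ratio of 0.37 (0.27 to 0.47), and *Rpl36al* had 247 RPKM in N, 224 in αA and 307 in PαA against 1198 RPKM in N, 1284 in αA and 1689.9 in PαA for *Rpl36a*. *Rpl7l1*, a relative of *Rpl7*, had 37.6 RPKM in N, 31.9 in αA and 32.7 in PαA, far under *Rpl7* with 1648 RPKM in N, 1753 in αA and 2229.6 in PαA. Its log2 ratio of PαA to N was -0.20 (-0.29 to -0.12), while that of *Rpl7* was 0.44 (0.42 to 0.45).

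Paralogs known from other tissues were at or near 0. *Rpl39l*, which is best known from testis, had 7 (N), 29 (αA) and 66 (PαA) reads, all of them unique, or 0.283, 1.28 and 3.12 RPKM. It stayed under 5 RPKM and so outside the counts above, and its log2 ratio of PαA to N was 3.46 (2.34 to 4.83), the largest of any member with reads in both libraries. *Rpl39* itself had 1872 RPKM in N, 2236 in αA and 2947 in PαA and a ratio of 0.65 (0.63 to 0.67). *Rpl10l*, also known from testis, had 3 reads in αA and 0 in N and PαA, and *Rpl3l*, the form of striated muscle, had 0 reads in every library against 1234 RPKM in N, 1339 in αA and 1801 in PαA for *Rpl3*. For a gene of 0 reads the counting error allows up to 3.

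Copies split or took over the reads of some genes. *Rps12* was listed with 651 (N), 478 (αA) and 643 (PαA) reads, and *Rps12-ps3* with 47107 (N), 49442 (αA) and 65945 (PαA) reads, none of them unique. Summed over both genes, the log2 ratio of PαA to N was 0.70 (0.69 to 0.72). *Rpl27* had 1098 (N), 1029 (αA) and 1159 (PαA) reads, and *Rpl27-ps3* 32624 (N), 32398 (αA) and 43533 (PαA) reads, with a summed ratio of 0.63 (0.61 to 0.65). *Rpl10* and *Rpl10-ps3* together had a log2 ratio of 0.31 (0.29 to 0.33), and *Rps27* with *Rps27rt* one of 0.65 (0.63 to 0.66). Most reads of these pairs cannot be assigned to 1 of the genes, so the sums are given. *Rpl27* had 192 (N), 258 (αA) and 250 (PαA) unique reads, with a log2 ratio of PαA to N of 0.60 (0.33 to 0.88).

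*Rpl9-ps6* had the largest ratio of PαA to N among the genes above 5 RPKM. It had 67 (N), 101 (αA) and 278 (PαA) reads, and 4, 6 and 14 of these were unique. Its log2 ratio of PαA to N was 2.28 (1.89 to 2.68) with all reads and 2.03 (0.36 to 4.09) with unique reads. *Rpl9*, which has 55554, 54882 and 72464 reads, had 0.61 (0.59 to 0.62). The other -ps genes had few reads. *Rpl13a-ps1* had 43 (N), 38 (αA) and 65 (PαA) reads, *Rpl7a-ps5* 32 (N), 15 (αA) and 14 (PαA) reads, *Rpl9-ps1* 7 (N), 6 (αA) and 3 (PαA) reads and *Rpl36a-ps1* 5 (N), 7 (αA) and 0 (PαA) reads, and *Rpl36-ps4* had 0 in all of them.

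Unique reads gave a like picture for most genes and a different one for a few. In 18 of the 83 genes at least 90% of the reads were unique in every library, and in 12 or 13 genes, by library, under 1% were. The 18 genes had a median log2 ratio of PαA to N of 0.52, with 16 higher and 2 lower, and the 34 genes with at least 50% unique reads one of 0.53. With unique reads in place of all reads, the ratio of PαA to N changed direction for *Rps23* (from 0.70 to -0.24), *Rps27* (0.65 to -0.18), *Rpl21* (0.12 to -0.81) and *Rps27rt* (0.63 to -1.78), each with under 2% unique reads. It did so too for *Rpl15* (0.45 to -0.12), a gene named after its values were seen. The counting interval of the unique ratio lay below 0 for *Rpl21* (-1.23 to -0.40) and spanned 0 for the other genes. *Rpl28*, the last of the 5 genes with the largest difference between the measures in any comparison, went from 0.20 to 0.08.

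**Figure D4:**
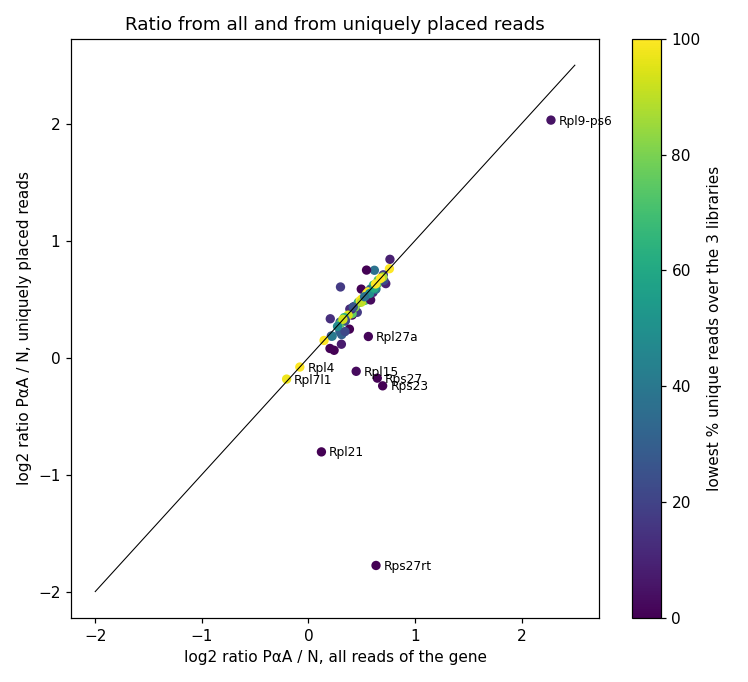
Each point is 1 gene above 5 RPKM with unique reads in both libraries, placed by its log2 ratio of PαA to N from all reads (horizontal) and from uniquely placed reads (vertical), and coloured by the lowest percentage of unique reads over the libraries. Genes with mostly unique reads lie on the diagonal, and *Rps27rt*, *Rpl21*, *Rps23* and *Rps27*, with under 2% unique reads, lie under it.

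Intron reads are another readout of these genes, since they come largely from RNA that is not yet spliced. The 91 genes had 2727 (N), 2565 (αA) and 2961 (PαA) intron reads. Scaled to the library total, PαA was higher than N by a log2 ratio of 0.34 (0.27 to 0.42) and higher than αA by 0.30 (0.23 to 0.38), while αA and N differed by 0.04 (-0.04 to 0.12). Over all genes the log2 ratio of intron reads was 0.09 for PαA against N, -0.42 for PαA against αA and 0.51 for αA against N. Introns of ribosomal protein genes often hold genes of small nucleolar RNAs, and the library kit does not mark strand, so some of these reads may come from other transcripts.

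The 6 ribosomal proteins outside the name pattern were all higher in PαA than in N, with a median log2 ratio of 0.55. *Rplp1*, a protein of the acidic stalk that recruits translation factors, had 5267 RPKM in N, 6055 in αA and 7852 in PαA, and *Rpsa* had 1852 RPKM in N, 2163 in αA and 2538 in PαA. Among 17 other mRNAs known to start with a TOP tract, 13 were higher in PαA than in N and 4 lower, with a median log2 ratio of 0.24. *Rack1*, a scaffold on the small subunit, was highest (0.71), elongation factor *Eef1a1* stood at 0.20, and *Pabpc1* (-0.48) and *Eif4b* (-0.64) were lower. Ribosomal protein genes with a run of pyrimidines at the annotated start (23 genes) had a median log2 ratio of PαA to N of 0.56, and those without (37 genes) one of 0.49.

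Genes that make ribosomes were divided in direction. Of 28 ribosome biogenesis factors above 5 RPKM, 11 were higher and 17 lower in PαA than in N, with a median log2 ratio of -0.09 against -0.19 over all genes, and 0 were past 1.5-fold higher and 6 past 1.5-fold lower, against backgrounds of 5.67 and 22.3%. The share that was higher, 39.3%, compares with 33.5% over all genes. Nucleolin (*Ncl*), which processes ribosomal RNA, had 58.7 RPKM in N, 36.1 in αA and 30.8 in PαA, and *Ubtf*, the factor that opens ribosomal DNA to RNA polymerase I, had 27.1 RPKM in N, 22.8 in αA and 14.9 in PαA. Fibrillarin (*Fbl*), a methylase of ribosomal RNA, was higher with 96.4 RPKM in N, 97.4 in αA and 117 in PαA. Among 8 regulators of ribosomal protein synthesis above the filter, 3 were higher and 5 lower, and the 37.5% that were higher compare with 33.5% over all genes. The 3 higher ones were *Rheb*, *Eif4ebp2* and *Eif4ebp1*, with log2 ratios of PαA to N of 0.07, 0.06 and 0.02. The next 3 genes were among the lower ones. *Larp1* had 9.92 RPKM in N, 7.81 in αA and 6.08 in PαA, *Rptor*, a subunit of mTOR complex 1, had 7.08 RPKM in N, 3.36 in αA and 2.89 in PαA, and *Myc* had 12.8 RPKM in N, 11.9 in αA and 11.5 in PαA. The 75 mitochondrial ribosomal proteins above the filter had a median log2 ratio of 0.12, with 50 higher and 25 lower.

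**Figure D5:**
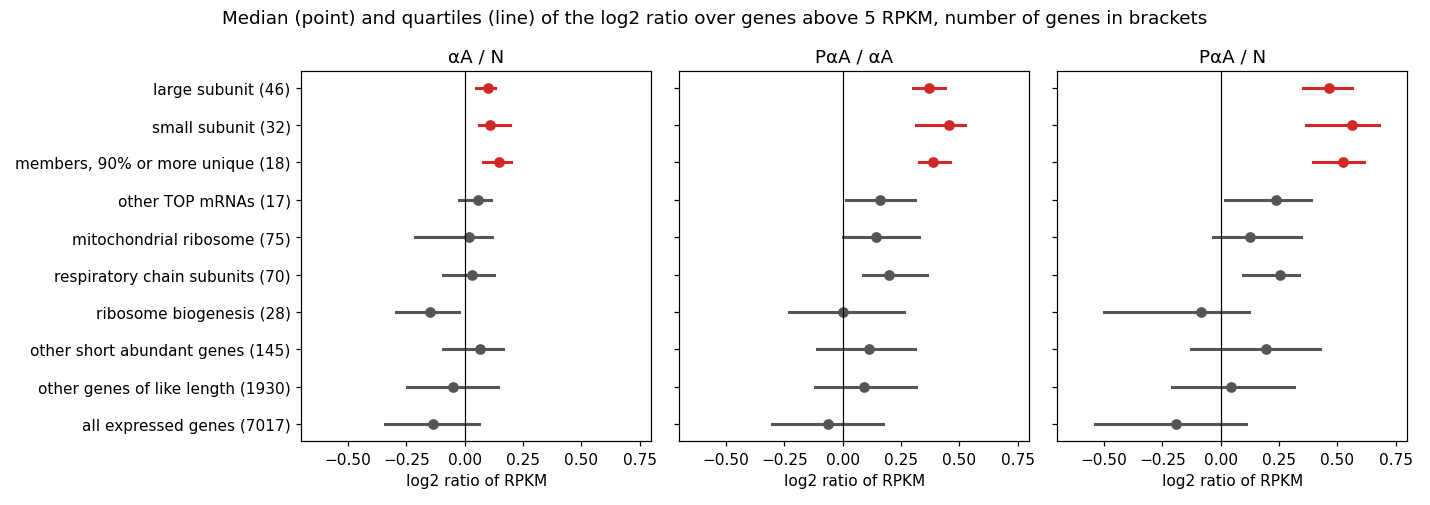
Points give the median and lines the quartiles of the log2 ratio of RPKM for genes above 5 RPKM, in αA against N, PαA against αA and PαA against N, with the number of genes in brackets. Ribosomal protein genes (red) have medians from 0.46 to 0.56 in PαA against N, while the grey lists range from -0.19 for all genes to 0.25 for respiratory chain subunits.

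Other genes of the members' exon lengths had higher median log2 ratios than all genes in each comparison. The 83 genes had a median exon length of 937 bases, against 2966 over all 7017. Another 1930 genes of like length, between the 10th and the 90th percentile of the members (546 and 2063 bases), had median log2 ratios of 0.05 in PαA against N, 0.09 in PαA against αA and -0.05 in αA against N. The 145 of them with a mean RPKM above 200 had 0.19, 0.11 and 0.07, and 70 nuclear subunits of the respiratory chain, another class of short abundant mRNAs, had 0.25, 0.20 and 0.03. Ratios centred on genes of the same length gave the ribosomal protein genes medians of 0.29, 0.23 and 0.11. Thus the medians of PαA against N and against αA were more than 1.5 times smaller after this centring, with 76 genes higher and 7 lower in PαA against N. Among the 78 genes above the filter that encode ribosomal proteins, the log2 ratio of PαA to N correlated little with log2 exon length (Pearson's r of -0.09 and Spearman's rho of -0.05 across genes, which are not independent replicates).

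Markers of other cell types and states also differed between the libraries, and their part in the ribosomal protein values was not tested. *Cd3e*, *Cd3g* and *Cd4* were high in all 3 libraries (340.6 to 1346 RPKM), but all 3 were lower in PαA than in N and in αA. Their sum was 1998 RPKM in N, 2260 in αA and 1712 in PαA. *Foxp3* had 32.7 RPKM in N, 20.9 in αA and 15.3 in PαA, and all 5 Treg markers and all 5 TFR markers were lower in PαA than in the other libraries, except that *Cxcr5* differed little between PαA and N. Of the 3 plasma cell markers, *Jchain* had 44.3 RPKM in N, 58.4 in αA and 94.8 in PαA and *Sdc1* 0.744 RPKM in N, 1.03 in αA and 5.97 in PαA, while *Tnfrsf17* had 21 reads in αA and 0 in PαA. The B cell markers *Cd79a* and *Ms4a1* stayed under 5 RPKM, *Cd79b* lay between 8.67 and 11.5, and *Lyz2* of myeloid cells had 214 RPKM in N, 134 in αA and 184 in PαA. Of 9 genes of resting and naive T cells above the filter, 5 were past 1.5-fold higher, against a background of 5.67%, and 2 past 1.5-fold lower, against 22.3%, in PαA against N. Among them were *Klf2* with 54.3 RPKM in N, 56.0 in αA and 178 in PαA, *S1pr1* with 55.5 RPKM in N, 88.0 in αA and 189 in PαA and *Lef1* with 21.5 RPKM in N, 9.66 in αA and 8.92 in PαA. Summed over each list in the order N, αA, PαA, the 5 Treg markers had 549.6, 494 and 265 RPKM and the 5 TFR markers 608, 536 and 323. The 3 plasma cell markers had 45.2, 60.4 and 101 and the 4 B cell markers 15.8, 12.6 and 14.4. The 4 markers of CD8 and NK cells had 12.4, 18.7 and 14.3 and 5 myeloid markers 264, 165 and 232. *Cd8a*, one of the CD8 markers, had 18 (N), 179 (αA) and 231 (PαA) reads, and *Cd8b1* 400, 486 and 198. In RNA from many cells, a different make-up of the cells and a different level per cell cannot be told apart.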

How the data were processed

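Per the methods, the authors sequenced poly(A) libraries as single reads of 59 bases. After adapter trimming, alignment to GRCm38 and counting per gene were done with default settings of CLC Genomics Workbench. The annotation release is not given in the sources used here. They deposited counts of total, unique, junction and intron reads per gene, not normalized, and RPKM and TPM. The deposited column called expression value equals the total exon reads. RPKM uses a library total, recovered here from reads, exon length and RPKM, that is larger than the sum of exon reads. Total counts hold reads that match several places, unique counts do not, so near-identical copies divide total reads.

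Medians and counts cover genes that exceeded 5 RPKM in 1 or more libraries, with 1.5-fold as the main and 2-fold, as in the study, as the other threshold. With 1 library per genotype no test was run. The members and lists were chosen with earlier results of these data known. Named genes were the 5 highest and 5 lowest log2 ratios in each comparison (100 or more reads in the larger of the 2 libraries), the 5 highest and 5 lowest mean RPKM above 5, paralogs and their pairs, the 5 largest differences between total and unique ratios, 10 genes with further roles, the -ps genes and *Rps19bp1*, and members of the fixed lists. *Rps4l*, the 9 noncoding snoRNA host genes and 1 myeloid marker were not analysed here, and the values of some other genes are not reported here. Windows of 59 bases and reading frames came from GENCODE M21 transcripts. TMM factors came from edgeR 4.0.16 in R 4.3.3, other steps from scipy 1.17.1, statsmodels 0.14.6, pandas 2.3.3 and numpy 2.4.6 in Python 3.11.15. Intervals were tested on simulated counts.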

Additional observations from a re-analysis of the deposited data

How the results depend on the processing

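The direction of the 3 medians held under every alternative. For αA against N, PαA against αA and PαA against N, the median log2 ratio was 0.075, 0.23 and 0.30 with TPM, 0.27, 0.47 and 0.73 with TMM factors, 0.28, 0.47 and 0.74 with median-of-ratios factors, 0.12, 0.47 and 0.58 with a library total without the members, 0.091, 0.37 and 0.48 with unique reads, 0.10, 0.41 and 0.51 with junction reads, and 0.11, 0.23 and 0.29 after centring on exon length. For PαA against N it was 0.50 with genes above 1 RPKM, 0.51 above 100 RPKM and 0.50 with reads summed over members that share windows, and members with at least 50% unique reads gave 0.13 for αA against N and 0.53 for PαA against N. The backgrounds given above for 1.5-fold belong to RPKM and the main filter, so the counts below at other settings, apart from 2-fold, stand without one. In PαA against N the median log2 ratio of all genes was -0.39 with TPM, 0.04 with TMM factors and 0.05 with median-of-ratios factors. Counts past 1.5-fold move with this scaling of all genes and are no result about the members alone. The number past 1.5-fold in PαA against N, 26, was 2 with TPM, 62 with TMM factors, 65 with median-of-ratios factors, 40 without the members' reads in the total, 16 after length centring, 11 of the 34 members with at least 50% unique reads and 1 at 2-fold. In PαA against αA, 4 became 16 with TMM factors, 17 with median-of-ratios factors, 16 without the members' reads in the total, 8 with unique reads, 1 of members with at least 50% unique reads, and 2 above 100 RPKM, at 2-fold, among genes that encode ribosomal proteins and with summed reads. In αA against N, 3 became 0 with junction reads, 5 above 1 RPKM, and 1 above 100 RPKM, with a pseudocount of 1, at 2-fold, with at least 50% unique reads, among genes that encode ribosomal proteins and with summed reads. The shares of 12.5, 14.1 and 18.2% were 5.56, 6.38 and 8.19% for members with at least 50% unique reads, 7.05, 8.12 and 10.7% of unique reads and 21.7, 24.1 and 30.0% of junction reads. Among 39 named genes, 5 ratios past 1.5-fold turned over, all with unique reads, namely *Rps23* (-0.24) and *Rps27* (-0.18) in PαA against N and *Rps27rt* in αA against N (0.13), PαA against αA (-1.90) and PαA against N (-1.78), each with a counting interval that spans 0. The causes were not tested, except that leaving out genes lowers a count by construction. The choice of genes that encode ribosomal proteins and the summed reads were added after the data were seen. No paired analysis was possible because each group has 1 library and no result comes from a test.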

Other observations

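Genes outside the name pattern that share at least 20% of a member's 59-base windows also held reads. *Gm2000*, which shares windows with *Rpl35* and differs from its reading frame at 1 of 372 bases, had 15941 (N), 13829 (αA) and 17708 (PαA) reads, none of them unique, against 7938, 7727 and 8345 for *Rpl35* itself. *Gm10036*, which shares 33.0% of the windows of *Rpl11*, had 545, 465 and 930 reads in the same order, of which 90, 84 and 152 were unique. *Gm45713*, which shares 39.2% of those of *Rpl13a*, had 195, 222 and 442 reads, with 8, 0 and 5 unique. In both, PαA held the most reads, as it did in *Rpl11* and *Rpl13a*. *Gm9493*, with 34.1% of the windows of *Rps7*, had 242, 296 and 217 reads, none of them unique, and αA held the most. *Fam69a*, some of whose annotated transcripts share 41.0% of the windows of *Rpl5*, had 676, 656 and 1028 reads, all but 1 to 5 of them unique. These genes were chosen after their values were seen.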
